A study of Mus musculus with 6 samples.

Results

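Amino acid transport and the targets of the transcription factor ATF4 were examined in adaptive regulatory T cells of the mouse (aTreg), which are CD4+ cells that acquire the regulatory transcription factor Foxp3 when they are activated in the presence of TGF-beta. The set was a fixed list of 38 genes, chosen by name: amino acid transporters, enzymes of asparagine, serine and one-carbon metabolism, cytosolic tRNA synthetases, and regulators and effectors of the ATF4 stress response. Of the 38 genes, 37 were found among the 25759 gene identifiers of the table and 34 were abundant enough to be tested. Slc7a5 was not analysed here. The WT group was 3 libraries of aTreg from normal C57BL/6 mice, and the BMPR1a-deficient group was 3 libraries from BMPR/CD4cre mice of the same strain, in which Cre recombinase is driven by Cd4. Both groups carried a Foxp3-GFP reporter transgene, and the mice were 8 to 12 weeks old. Lymph node and spleen cells of each group were cultured for 3 days with concanavalin A, a lectin that activates T cells, at 2 µg/ml, with 10 ng/ml of IL-2 and with TGF-beta at 3 ng/ml. CD4+ cells positive for Foxp3-GFP were then sorted. The receptor BMPR1a binds bone morphogenetic proteins. Cd4-driven Cre is active from thymic development on, so the deletion is not limited to regulatory T cells.

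When a cell runs short of an amino acid, uncharged tRNA activates the kinase GCN2 (Eif2ak4); unfolded protein in the endoplasmic reticulum activates a related kinase, PERK (Eif2ak3). Each phosphorylates the translation initiation factor eIF2alpha, which slows protein synthesis in general but favours translation of the Atf4 mRNA, and ATF4 then raises transcription of genes that import amino acids, make them and load them onto tRNA. Activated T cells import much more amino acid than resting ones to sustain growth, and much of ATF4's activity is set by translation, so the level of its mRNA need not follow its activity.

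ATF4 binds DNA together with C/EBP family proteins at a composite element whose core can be written TGATGNAA, which reads TTNCATCA on the other strand. This core was searched on both strands in the RefSeq promoters (GRCm38.p6, 250 bases before to 50 after the transcription start). Promoters were found for 30 of the 38 genes, and 11 of these (36.7%) held at least 1 match, beside 4.51% of all 27025 genes with a promoter. Matches lying wholly before the start are shown for 6 of these genes with up to 11 bases on each side, 5′ to 3′ on the gene's strand and with the core in capitals, because they show where this shared element sits in genes of different roles; for Slc7a11 the run is the pair of matches and what lies between them.
Asns, chr6:7693214-7693243, minus strand: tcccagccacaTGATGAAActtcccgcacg
Slc7a11, chr3:50443653-50443679, minus strand: TGATGCAAacctggagaatTTGCATCA
Chac1, chr2:119351038-119351067, plus strand: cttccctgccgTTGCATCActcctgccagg
Gars, chr6:55037960-55037989, plus strand: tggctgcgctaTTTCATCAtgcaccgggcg
Tars, chr15:11399659-11399684, minus strand: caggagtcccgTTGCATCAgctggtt
Nupr1, chr7:126625562-126625591, minus strand: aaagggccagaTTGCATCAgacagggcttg

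Relative to the RefSeq start, counted so that the base just before it is -1, the core began at -23 in Asns, which makes asparagine, and at -66 and -47 in Slc7a11, the light chain of the cystine-glutamate exchanger. It began at -193 in Chac1, whose product degrades glutathione, and at -110 in Nupr1, a stress-induced chromatin protein. Among the synthetase genes it began at -30 in Gars and -15 in Tars. In Slc1a4, Trib3, Iars and Yars the match touched or followed the start. Cytosolic tRNA synthetases of the list held the core in 5 of 8 genes with a promoter, whereas 0 of 8 such genes among the cytosolic synthetases and synthetase complex genes outside the list and 0 of 15 among the mitochondrial synthetases held it. The plot of motif shares gives every group. The list was drawn up from genes known as ATF4 targets, and for some of them this element was part of that knowledge. A match is a run of letters and is no evidence of binding.

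**Figure D1:**
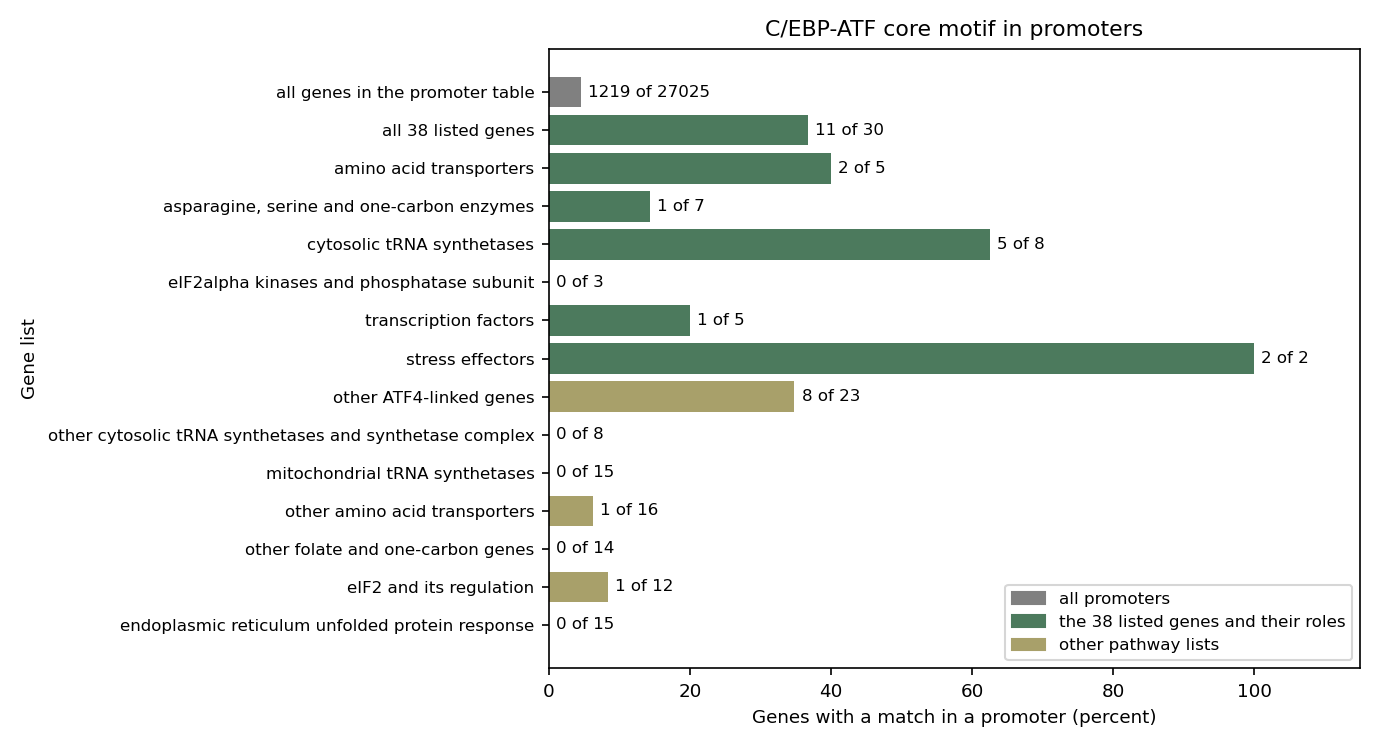
Share of genes with the core TGATGNAA on either strand of a RefSeq promoter, in percent (x axis), for all promoters (grey), the 38 listed genes and their roles (green) and 7 other pathway lists (olive), with the number of genes with a match and with a promoter beside each bar. The bar of all 38 listed genes stands at 36.7% and that of all genes at 4.51%.

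Sequencing depth, estimated from the smallest steps of the FPKM values (fragment counts scaled by transcript length and by library size), was about 30.9 to 38.9 M fragments per library. The T cell markers Cd3d, Cd3e, Cd3g, Cd4, Foxp3 and Il2ra were above 0 in every library, with Cd4 at 329 to 436 FPKM. Cd3e was lowest in BMPR1a-deficient replicate 1, at 118 FPKM against 194 to 259 in the other 5 libraries. Cd3d (425 FPKM) and Cd4 (436 FPKM) were highest in that library. Bmpr1a was at 1.39, 2.34 and 1.31 FPKM in WT and 0.439, 0.720 and 0.691 in deficient aTreg (limma adjusted p = 0.183). BMPR1a-deficient replicate 1 stood apart: its 13 mitochondrially encoded mRNAs averaged -3.43 log2 units relative to the WT mean (summed level 5335 FPKM, against 44657 to 53789 in the other 5 libraries). The 9 myeloid and dendritic markers, none at 0 in any library, summed to 121, 23.1 and 47.2 FPKM in WT and 16.9, 70.1 and 159 in deficient aTreg, lowest in WT replicate 2 and BMPR1a-deficient replicate 1. The B and plasma cell markers summed to 28.3 to 54.0 and 36.0 to 52.0 FPKM, and the CD8 markers to 32.0 to 41.8 and 37.9 to 68.4. The NK markers summed to 5.53 to 9.31 and 3.05 to 8.36, most of it from Eomes in each library. The NK receptor gene Ncr1 was at 0 in all WT libraries and in BMPR1a-deficient replicates 1 and 3. Klrb1c was at 0.126, 0.0727 and 0.0692 FPKM in WT and 0.598, 0.760 and 0.648 in deficient aTreg, without overlap. It was below the filter and was not tested. For Eomes, Ncr1 and Klra8 the groups overlapped. The part of these other cells in the results was not tested. In bulk RNA, fewer cells of a type and less RNA per cell cannot be told apart. Whether separate animals or cultures gave the libraries is in no label, so p-values measure only the spread between these libraries, which may be technical.

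No gene of the amino acid response list passed the threshold between WT and BMPR1a-deficient aTreg. In limma on log2(FPKM + 1), 0 of the 34 genes tested had an adjusted p under 0.05, where 1.07% of all 13413 genes tested did (0.746% higher and 0.321% lower). At an unadjusted p under 0.05 there were 2, Slc7a1 on the higher and Trib3 on the lower side (5.87% to 9.29% of all genes were on each side), and the smallest adjusted p was 0.134. The median log2 fold change, BMPR1a-deficient minus WT, was 0.06, beside 0.04 over all genes tested, with 18 positive and 16 negative values (55.5% of all genes tested were positive). The groups did not overlap for 4 of the 34 genes, 1 higher and 3 lower, where 26.3% of all genes did not overlap (15.9% higher and 10.4% lower). A missed threshold does not show equal levels. The 95% confidence interval lay between -1 and 1 on the log2 scale for 29 of the 34 genes and excluded 0 for 2. Without BMPR1a-deficient replicate 1, 1 of the 34 genes (Eif2ak3) passed, in a fit where 1.72% of all genes did, and in each of the other fits that left out a library 0 passed. Without WT replicate 2, 6 of the 34 genes had an unadjusted p under 0.05, 5 of them higher, beside 13.7% of all genes in that fit (9.68% higher), and 0 passed after adjustment.

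**Figure D2:**
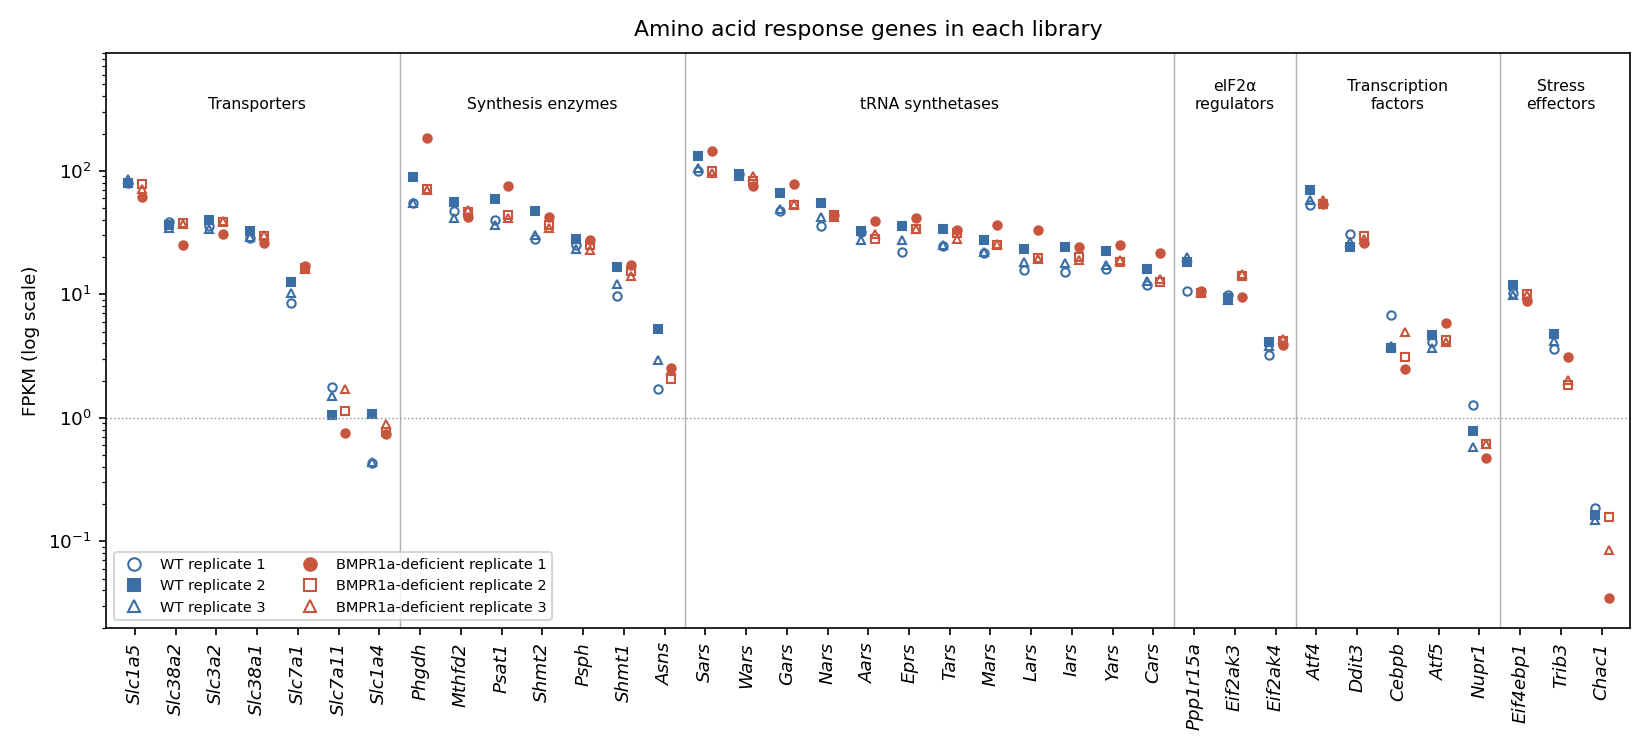
FPKM (log scale) of the 37 listed genes found, by role, in WT (blue) and BMPR1a-deficient libraries (red), each point being 1 library; the filled symbols are WT replicate 2 and BMPR1a-deficient replicate 1, and the dotted line marks 1 FPKM. Levels run from Chac1, under 0.2 FPKM, to Phgdh at 183 and Sars at 144 FPKM in BMPR1a-deficient replicate 1.

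The genes spanned a wide range of levels, as the plot of levels by library shows. WT means ran from 0.166 FPKM for Chac1 to 112 FPKM for Sars, the cytosolic seryl-tRNA synthetase, and 27 of the 37 genes had a WT mean of at least 10 FPKM. The levels of a gene also moved between libraries of the same group. The ratio of the highest to the lowest of the 6 libraries had a median of 1.58 in the 34 genes tested and 1.61 in all genes tested, and reached at least 2 in 8 of the 34.

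**Figure D3:**
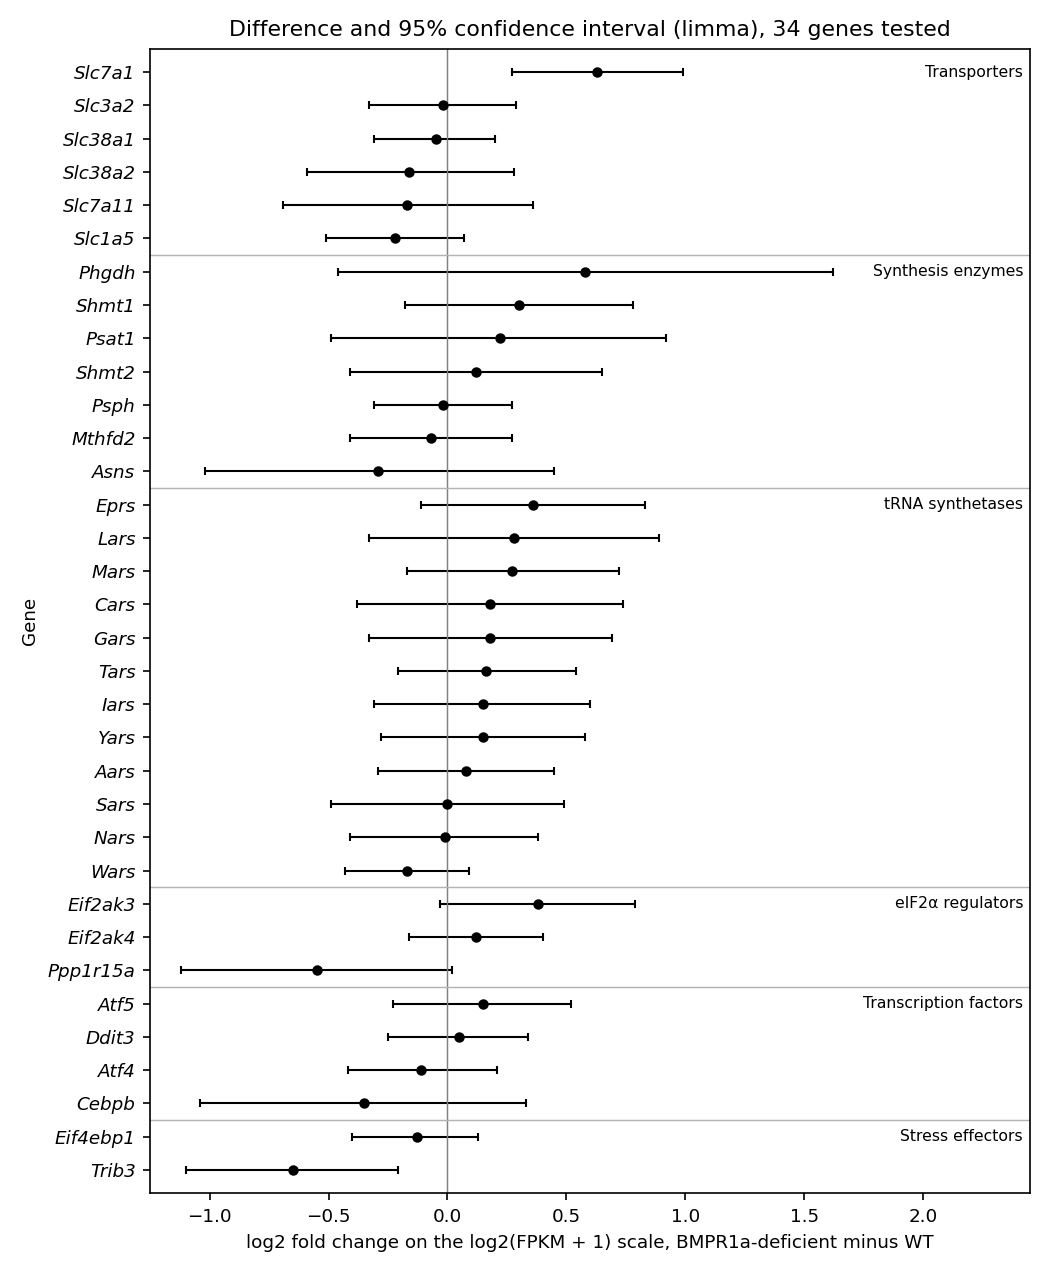
Log2 fold change, BMPR1a-deficient minus WT, from log2(FPKM + 1) (x axis), of the 34 genes tested, grouped by role; points are limma estimates from 3 libraries per group and bars are 95% confidence intervals. The intervals of Slc7a1 (0.27 to 0.99) and Trib3 (-1.10 to -0.21) do not cross 0, and that of Phgdh is the widest shown, from -0.46 to 1.62.

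The sensors were expressed at moderate levels. Eif2ak4, which encodes GCN2, was at 3.24, 4.13 and 3.81 FPKM in WT and 3.89, 4.16 and 4.31 in deficient aTreg. Its libraries overlapped between the groups, and its log2 fold change of 0.12 had a 95% interval of -0.16 to 0.40. Eif2ak3, which encodes PERK, was at 9.81, 9.39 and 9.00 FPKM in WT and 9.54, 14.0 and 14.6 in deficient aTreg. Replicates 2 and 3 of the deficient group were above all WT libraries, and replicate 1 lay among them. The log2 fold change of Eif2ak3 was 0.38 (SE 0.168, limma adjusted p = 0.357) with all libraries and 0.56 without BMPR1a-deficient replicate 1 (adjusted p = 0.0425). In the other alternatives its adjusted p lay between 0.330 and 0.675. Ppp1r15a encodes GADD34, the subunit that directs a phosphatase to eIF2alpha and so ends the response. It was at 10.6, 18.2 and 20.2 FPKM in WT and 10.7, 10.2 and 10.5 in deficient aTreg, close together in the deficient libraries and spread in WT, where replicate 1 lay among the deficient values. Its log2 fold change was -0.55 (SE 0.233, limma adjusted p = 0.345) and ran from -0.82 without WT replicate 1 (adjusted p = 0.0710) to -0.38 without WT replicate 3 (adjusted p = 0.684).

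Atf4 mRNA was abundant and nearly level across the 6 libraries. It stood at 52.5, 69.3 and 57.6 FPKM in WT and 53.4, 53.5 and 58.5 in deficient aTreg, with a log2 fold change of -0.11 (95% interval -0.42 to 0.21). Ddit3, which encodes the pro-apoptotic factor CHOP, was at 30.7, 24.1 and 26.7 FPKM in WT and 25.8, 29.9 and 28.2 in deficient aTreg (log2 fold change 0.05, 95% interval -0.25 to 0.34). For both genes the groups overlapped, and the highest library was 1.32 times the lowest for Atf4 and 1.27 times for Ddit3. The paralogous factor gene Atf5 was at 3.69 to 4.71 FPKM in WT and 4.15 to 5.84 in deficient aTreg. Cebpb, which encodes a dimer partner of ATF4, was at 6.75, 3.71 and 3.83 FPKM in WT and 2.47, 3.10 and 4.95 in deficient aTreg, with a wide interval of -1.04 to 0.33 around a log2 fold change of -0.35. Nupr1 was near 1 FPKM or below in all libraries (0.583 to 1.26 in WT and 0.470 to 0.615 in deficient aTreg) and was not tested. Of the 37 genes, 12 shared exon bases with another annotated gene, from 0.409% of their exon bases up to 20.7% in Cebpb, and strand handling is not given in the sources used here, so reads from those stretches cannot be assigned with certainty.

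Trib3 had the largest negative difference among the genes tested. It encodes a pseudokinase that ATF4 and CHOP induce and that restrains them in turn. Its level was 3.62, 4.79 and 4.17 FPKM in WT and 3.13, 1.84 and 2.03 in deficient aTreg, so each deficient library was below each WT library, at a mean ratio of 0.557 to WT. Its log2 fold change was -0.65 (SE 0.181, 95% interval -1.10 to -0.21), which did not pass the threshold (limma adjusted p = 0.188). Across the alternatives the value stayed between -0.85 and -0.55 and the adjusted p between 0.0673 and 0.508. Chac1, a gene strongly induced when this response runs at full strength, was close to absent: 0.187, 0.163 and 0.149 FPKM in WT and 0.0346, 0.156 and 0.0852 in deficient aTreg. At the estimated depths these values stand for only about 2 to 9.5 fragments per library, so no difference was detectable for it. Eif4ebp1 encodes the translation repressor 4E-BP1, and it was at 10.2, 12.0 and 9.80 FPKM in WT and 8.88, 10.0 and 9.87 in deficient aTreg (log2 fold change -0.13, 95% interval -0.40 to 0.13).

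Slc7a1 had the largest positive difference. It encodes CAT1, the main carrier of arginine and lysine into many cells. Levels were 8.46, 12.6 and 10.2 FPKM in WT and 17.1, 16.2 and 16.1 in deficient aTreg, so every deficient library was above every WT library at a mean ratio of 1.58 to WT. Its log2 fold change was 0.63 (SE 0.146, 95% interval 0.27 to 0.99) with an unadjusted p of 0.00493 in limma. After adjustment over all genes the threshold was missed (adjusted p = 0.134, and 0.119 to 0.416 over the alternatives). Its value was 0.62 without WT replicate 3 and 0.60 without BMPR1a-deficient replicate 1, and stayed between 0.50 and 0.76 in all alternatives.

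The 5 other transporter genes tested had log2 fold changes between -0.22 and -0.02. Without BMPR1a-deficient replicate 1 the median over the 6 tested went from -0.11 to 0.02, with 4 of 6 positive. Slc1a5 encodes ASCT2, an exchanger that brings glutamine into activated T cells, and had the highest WT mean of the 7 transporter genes found. Its level was 79.2, 79.7 and 85.7 FPKM in WT and 61.7, 78.0 and 71.1 in deficient aTreg. All deficient libraries were below all WT libraries, by little in replicate 2, and the log2 fold change was -0.22 (95% interval -0.51 to 0.07, limma adjusted p = 0.435). Slc3a2 encodes the CD98 heavy chain that carries light chains such as the Slc7a11 product to the surface. It was at 35.9, 39.7 and 34.0 FPKM in WT and 31.0, 38.3 and 39.2 in deficient aTreg, with a log2 fold change of -0.02 (95% interval -0.33 to 0.29). Slc38a2 encodes SNAT2, a sodium-coupled carrier of small neutral amino acids that cells raise on amino acid shortage. It was at 38.7, 36.2 and 34.7 FPKM in WT and 24.9, 37.8 and 36.9 in deficient aTreg. BMPR1a-deficient replicate 1 was the lowest of the 6 libraries for Slc38a2, and without it the log2 fold change of -0.16 became 0.03. The related Slc38a1 was at 28.4 to 32.3 FPKM in WT and 26.1 to 30.3 in deficient aTreg. The light chain gene Slc7a11 was low, at 1.79, 1.06 and 1.51 FPKM in WT and 0.756, 1.14 and 1.72 in deficient aTreg (log2 fold change -0.17, 95% interval -0.69 to 0.36). Slc1a4, which encodes the exchanger ASCT1, was at 0.430 to 1.08 FPKM in WT and 0.742 to 0.885 in deficient aTreg and was not tested. Compared on the FPKM scale, which accounts for transcript length, the WT mean of Slc3a2 was 36.6 and that of Slc7a11 1.45.

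Serine synthesis genes differed more between libraries than between groups. Phgdh, Psat1 and Psph encode the successive enzymes that turn a glycolytic intermediate into serine. Phgdh was at 54.7, 89.9 and 54.7 FPKM in WT and 183, 71.8 and 69.4 in deficient aTreg. WT replicate 2 was the highest of its group and BMPR1a-deficient replicate 1 the highest of all. The log2 fold change of Phgdh was 0.58 (SE 0.425, limma adjusted p = 0.544), and 0.13 without that library (adjusted p = 0.800). Psat1 showed the same order, with 39.9, 59.2 and 36.7 FPKM in WT and 75.7, 43.5 and 41.8 in deficient aTreg, and its log2 fold change went from 0.22 to -0.06 without BMPR1a-deficient replicate 1. Psph was steadier, at 23.4 to 28.3 FPKM in WT and 22.7 to 27.6 in deficient aTreg.

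Serine hydroxymethyltransferases and Mthfd2 pass the carbon of serine into the folate cycle. Shmt2, the mitochondrial form, was at 27.9, 47.6 and 30.3 FPKM in WT and 42.2, 36.1 and 34.4 in deficient aTreg (log2 fold change 0.12, 95% interval -0.41 to 0.65). WT replicate 2 was the highest library and the groups overlapped. Mthfd2 encodes the mitochondrial folate enzyme that rises strongly when T cells are activated. It was at 47.7, 56.3 and 41.2 FPKM in WT and 42.3, 46.8 and 48.1 in deficient aTreg (log2 fold change -0.07, 95% interval -0.41 to 0.27). The cytosolic form Shmt1 was at 9.66 to 16.5 FPKM in WT and 14.1 to 17.4 in deficient aTreg, with a log2 fold change of 0.30 (limma adjusted p = 0.498). Asns, whose promoter core is printed with the sequences, was at 1.72, 5.22 and 2.95 FPKM in WT and 2.51, 2.05 and 2.44 in deficient aTreg. Its WT libraries spread 3.04-fold and enclosed all deficient values. The log2 fold change of Asns was -0.29 (95% interval -1.02 to 0.45) and became 0.02 without WT replicate 2.

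The 12 cytosolic tRNA synthetase genes, which charge tRNAs with their amino acids, were all expressed well above the filter. Their median log2 fold change was 0.15 with 9 positive and 3 negative values, and 0 passed the threshold. Sars and Wars were the most abundant. Wars, the tryptophanyl synthetase, which interferon also induces, was at 93.8, 94.4 and 90.5 FPKM in WT and 75.0, 82.6 and 90.5 in deficient aTreg, each deficient library below the WT ones though replicate 3 only just (log2 fold change -0.17, limma adjusted p = 0.488). Eprs, which encodes the joined glutamyl and prolyl synthetase, had the largest positive difference of the 12, with 22.0, 35.7 and 27.4 FPKM in WT and 41.4, 33.7 and 33.7 in deficient aTreg. WT replicate 2 lay above 2 of the 3 deficient libraries, and the log2 fold change was 0.36 (95% interval -0.11 to 0.83, limma adjusted p = 0.426). Gars was at 47.3, 66.2 and 48.7 FPKM in WT and 78.0, 53.2 and 53.5 in deficient aTreg. BMPR1a-deficient replicate 1 was its highest library, as for 8 of the 12 synthetases, and WT replicate 2 came next. The remaining 8 beside Sars (Aars, Cars, Iars, Lars, Mars, Nars, Tars and Yars) had log2 fold changes between -0.01 and 0.28.

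Across these genes the same 2 libraries were high. WT replicate 2 was the highest WT library for 12 of the 12 synthetases and 7 of the 7 asparagine, serine and one-carbon enzymes, against 46.7% of all genes tested. BMPR1a-deficient replicate 1 was the highest deficient library for 10 of the 12 synthetases and 6 of the 7 enzymes, against 36.1% of all genes tested. Some related lists shared this, in part for only 1 of the 2 libraries. For the other cytosolic synthetase and complex genes the 2 shares were 90.9% and 54.5%, and for the other folate and one-carbon genes 86.7% and 66.7%. They were 58.8% and 70.6% for the mitochondrial synthetases, 81.2% and 37.5% for the eIF2 list, and 83.3% and 38.9% for the unfolded protein response list. They were 18.2% and 36.4% for the other transporters, and 40.0% and 26.7% for the other ATF4-linked genes. On the mean of log2(FPKM + 1) relative to the WT mean, the 12 listed synthetases stood at -0.17, 0.25 and -0.08 in WT and 0.38, 0.01 and 0.02 in deficient aTreg. The 7 listed enzymes stood at -0.23, 0.39 and -0.15 in WT and 0.39, 0.00 and -0.03 in deficient aTreg. Transporters did not follow this order: BMPR1a-deficient replicate 1 was the lowest of all 6 libraries for 5 of the 6 tested, with a mean of -0.19 there. That library was also the lowest for 5092 of all 13413 genes tested, whose mean there was -0.07. WT replicate 2 and BMPR1a-deficient replicate 1 are the libraries in which myeloid markers were lowest, and the latter also had the low mitochondrial mRNAs. The part of either in these levels was not tested. Between groups the median log2 fold change of the synthetases was 0.01 without BMPR1a-deficient replicate 1 and 0.30 without WT replicate 2, and that of the enzymes -0.02 and 0.35. Without WT replicate 1 the enzymes' median was also -0.02.

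**Figure D4:**
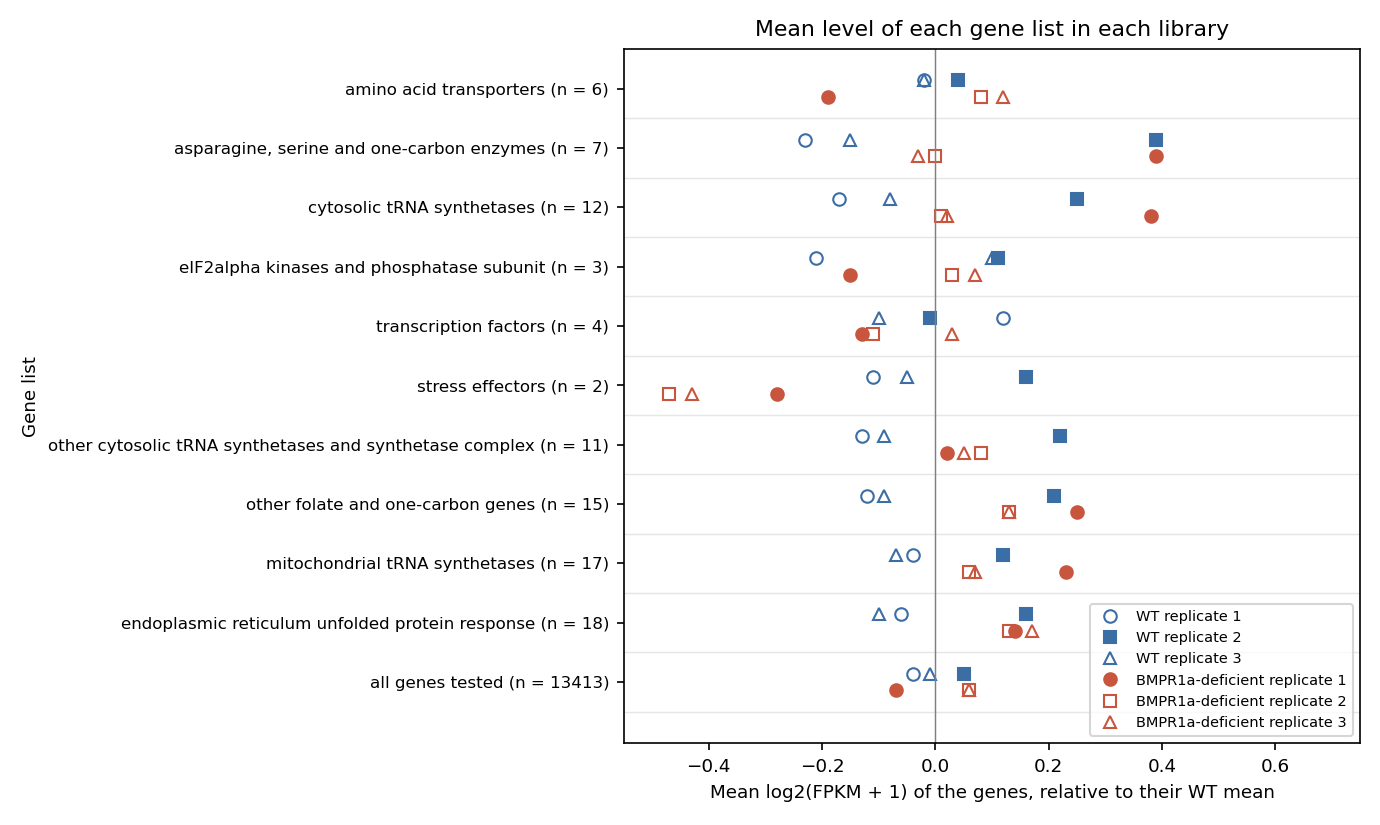
Mean log2(FPKM + 1) of each gene list relative to the WT mean of its genes (x axis, log2 units) in each of the 6 libraries, with n the number of genes tested; blue is WT, red is BMPR1a-deficient, and filled symbols are WT replicate 2 and BMPR1a-deficient replicate 1. For synthetases and enzymes the filled symbols lie at 0.25 to 0.39, to the right of the other 4 libraries, while for transporters BMPR1a-deficient replicate 1 lies at -0.19.

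The promoter core and the difference between groups were set side by side, with no test. The 8 tested genes with a match had a median log2 fold change of 0.11, and the 19 tested genes with a promoter and no match had one of 0.12.

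Other genes of the same pathways were examined in 7 lists with 103 genes tested, of which 0 passed the threshold in limma and 10 had an unadjusted p under 0.05 (8 higher and 2 lower), a share to be read beside the 15.2% of all genes. The smallest adjusted p was that of Eif2ak2, which encodes PKR, the eIF2alpha kinase activated by double-stranded RNA and induced by interferon. It was at 12.1, 13.0 and 12.2 FPKM in WT and 7.13, 7.86 and 9.22 in deficient aTreg, every deficient library below every WT library, with a log2 fold change of -0.57 (SE 0.111, limma adjusted p = 0.0914, and 0.0415 with quantile normalization). Also in the eIF2 list, Eif2b5, a subunit of the exchange factor that recharges eIF2, had a log2 fold change of 0.40 and was highest in BMPR1a-deficient replicate 1 (42.0 FPKM, against 20.7 to 25.5 in the other 5 libraries).

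Among 11 other transporters tested, Slc16a10, which carries aromatic amino acids, was at 1.07, 1.03 and 0.731 FPKM in WT and 2.60, 1.71 and 1.94 in deficient aTreg (log2 fold change 0.66, limma adjusted p = 0.152). Slc43a2, a carrier of large neutral amino acids, was at 22.8, 18.9 and 21.8 FPKM in WT and 27.2, 27.0 and 25.3 in deficient aTreg (0.31, adjusted p = 0.253 in limma). For both genes the groups did not overlap. The list's median was 0.20, with 7 positive and 4 negative values.

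In the list of 15 other ATF4-linked genes tested the median was 0.00, and -0.04 with upper-quartile scaling. The members with the smallest p lay in opposite directions. Jdp2, which encodes an AP-1 repressor, was at 5.89, 3.09 and 2.97 FPKM in WT and 5.44, 10.9 and 11.2 in deficient aTreg (log2 fold change 1.02, limma adjusted p = 0.250), with BMPR1a-deficient replicate 1 among the WT values. The angiogenic factor gene Vegfa was at 1.19, 2.90 and 4.43 FPKM in WT and 0.412, 0.898 and 0.997 in deficient aTreg (log2 fold change -1.04, limma adjusted p = 0.268). Atf3, Cth, Gdf15 and Stc2 were among the genes of this list below the filter, which were not tested. Stc2 was at 0.106, 0.133 and 0.128 FPKM in WT and 0.977, 0.983 and 0.166 in deficient aTreg.

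The mitochondrial synthetases had 12 positive and 5 negative values of 17, with a median of 0.12. Aars2, the mitochondrial alanyl synthetase, was at 4.31, 4.16 and 3.29 FPKM in WT and 5.26, 4.65 and 4.92 in deficient aTreg, without overlap (log2 fold change 0.28, limma adjusted p = 0.351). Of the folate and one-carbon genes, Mtr, which encodes methionine synthase, was at 7.03, 8.12 and 7.60 FPKM in WT and 10.3, 9.42 and 9.31 in deficient aTreg (0.32, limma adjusted p = 0.214), and the purine synthesis gene Gart had a log2 fold change of 0.35. That list's median was 0.16 with 11 of 15 values positive.

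In the unfolded protein response list the median was 0.19, with 12 of 18 values positive. Calr, which encodes the chaperone calreticulin, was at 261, 339 and 269 FPKM in WT and 569, 367 and 375 in deficient aTreg (log2 fold change 0.57, limma adjusted p = 0.310). Creld2, a gene induced by endoplasmic reticulum stress, was at 15.5, 17.1 and 13.8 FPKM in WT and 29.1, 18.9 and 18.8 in deficient aTreg (0.48, adjusted p = 0.326 in limma). In both, BMPR1a-deficient replicate 1 was the highest library. The 11 remaining cytosolic synthetase and synthetase complex genes had log2 fold changes from -0.10 to 0.21, the latter for Rars, while Kars was at 0.19.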

How the data were processed

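The deposited values are FPKM, 1 column per library of the 6. TopHat2, Cufflinks and Cuffdiff and the build GRCm38.p4 are named per the submitters' processing notes; for settings, annotation, strand handling and scaling between libraries, nothing is given in the sources used here. Since FPKM are not counts, the tests were made on log values.

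Symbols came from GENCODE M21 (GRCm38), which matched 24876 of 25759 identifiers, and 0 columns were left unmapped. Genes with a mean of at least 1 FPKM entered a two-sided limma fit (3.58.1, under R 4.3.3) of log2(FPKM + 1) on group, with trended eBayes and a Benjamini-Hochberg threshold of 0.05 over all genes; fold changes on this scale understate low genes. The fit was tested on simulated data. Depth was estimated from 6424 genes with a single transcript model length, taking the commonest small value of FPKM times length in a library as 1 fragment. The listed genes and the pathway lists were chosen with earlier results of these data known. Values per library were given for genes past the threshold, for non-overlapping genes with an unadjusted p under 0.05 and for a fixed set of the best-known response genes; a few others (among them Cebpb, Wars, Eprs and Gars) were added after their values were seen. From each pathway list the 2 genes with the smallest p are named, except that 1 gene and 1 promoter stretch are not reported here. Replicate numbers were not taken as pairs.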

Additional observations from a re-analysis of the deposited data

How the results depend on the processing

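Alternatives were a pseudocount of 0.1, no filter, 3 other scalings, another eBayes setting, a replicate block and each library left out. Over all genes, 100 higher and 43 lower calls became 5 and 5 with a replicate block and 15 to 150 and 7 to 81 with a library left out, and the lower calls became 70 with quantile normalization. Of the calls 69.9% were higher, 55.7% with quantile normalization and 50% with the replicate block. With 1 library omitted, calls in all were fewest (22) without WT replicate 3 and most (231) without BMPR1a-deficient replicate 1, against 143. The calls among the listed genes were 0 to 1 with a library left out and 0 in the other alternatives, the replicate block included, and the pathway lists had 1 call with quantile normalization, Eif2ak2. Libraries of equal number did not deviate together (correlations of 0.01, 0.06 and 0.05), not every library correlated best with its own number, and the labels give no pairing. With TGATGCAA alone, 8 of the 30 listed genes with a promoter (26.7%) held a match, against 1.03% of all genes.

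Of 238 single-gene values in the other alternatives 1 changed sign, that of Sars with quantile normalization (0.02). With a library left out 15 genes changed sign, none with a size above 0.29 in the full fit: Aars (-0.06 to 0.18), Asns (-0.58 to 0.02), Atf4 (-0.20 to 0.00), Cars (-0.06 to 0.31), Ddit3 (-0.03 to 0.13), Gars (-0.00 to 0.33), Mthfd2 (-0.18 to 0.04), Nars (-0.15 to 0.15), Psat1 (-0.06 to 0.42), Psph (-0.09 to 0.05), Sars (-0.18 to 0.12), Shmt2 (-0.02 to 0.35), Slc38a1 (-0.09 to 0.01), Slc38a2 (-0.26 to 0.03) and Slc3a2 (-0.08 to 0.08). Nupr1 and Slc1a4 were left out by the filter on low values, as was Chac1, whose few fragments limit what could be detected.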
